A study of Mus musculus with 22 samples.

Results

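The data described here are the input RNA libraries of a phosphoTRAP experiment, compared between MCH-hM3Dq mice and control mice. They were chosen by their labels: 11 of the 22 libraries of the series are inputs, of which 4 came from MCH-hM3Dq mice (numbered 1, 3, 4 and 5) and 7 from control mice (numbered 1 to 7). The other 11 libraries are the immunoprecipitates (IP) of the same mice. The MCH-hM3Dq mice carry hM3Dq, an engineered receptor that activates the neuron bearing it once its ligand clozapine N-oxide (CNO) is given, in cells that make melanin-concentrating hormone (MCH). All mice of both groups were C57BL/6N, 10 to 13 weeks old, fasted for 12 h and injected intraperitoneally with CNO for 1 h, so the fast and the ligand are shared by the groups and only the genotype label differs. The control genotype is labelled only as control, and the promoter that drives the receptor is not given in the sources used here. The piece of hypothalamus taken covered the arcuate nucleus (ARC) and the median eminence (ME). The series' design text names 5 MCH-hM3Dq mice, and 4 were analysed here. Each mouse has an animal number of its own, so the replicates are separate animals, and a number shared by the groups names 2 different mice.

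MCH neurons lie in the lateral hypothalamus and the zona incerta and promote feeding, energy storage and sleep, and their axons reach many brain regions, the median eminence among them. The arcuate nucleus holds the hunger-promoting AgRP neurons, the satiety-promoting POMC neurons, and neurons that release dopamine, growth hormone-releasing hormone or kisspeptin. The median eminence below it is lined by tanycytes, glia-like cells along the third ventricle, and has fenestrated capillaries. PhosphoTRAP captures ribosomes whose protein S6 is phosphorylated, a mark that follows neuronal activity. The input is the lysate before that capture, so it holds the RNA of every cell in the piece of tissue, whether active or not, and a difference between the inputs of the groups is one of the tissue as a whole. In such bulk RNA, fewer cells of a type and less RNA per cell cannot be told apart.

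Levels are normalized FPKM, which scale fragments to gene length and to the library. The number of reads is unknown, but the spacing of the lowest values gave a relative depth per library, which ran from 0.687 to 1.16, a 1.69-fold range. Genes at 1 FPKM or more numbered 12806 ± 132 (SD, n = 4) in the hM3Dq inputs and 12640 ± 222 (SD, n = 7) in the control inputs. Of all input values, 5.09% were exact zeros, and a further 1.13% lay above 0 but under 1e-06 and were not counted as zeros. The control inputs held more exact zeros, at 1099 ± 458 genes against 516 ± 254. An exact two-sided permutation test of that difference gave p = 0.0455, and 0.379 after adjustment over the 10 library measures compared, none of which differed after adjustment. The inputs of control mice 1 and 6 stood apart, with 1895 and 1579 genes listed at 0 and the lowest median correlations with the other inputs (0.877 and 0.892). A zero in this table need not mean that a gene is silent, since Gphn, which encodes the synaptic scaffold gephyrin, was listed at 0 in control mouse 6 and at 30.4 FPKM or more in every hM3Dq input. In the sequencing labels the hM3Dq libraries precede the control libraries without interleaving, so library order and genotype cannot be told apart.

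The inputs carried the transcripts that define the labelled region and its borders. Agrp, the AgRP neuron peptide, lay between 5.76 and 53.6 FPKM over the 11 inputs, and Pomc, the precursor of the melanocortins, between 4.06 and 44.8. Sst, which encodes somatostatin, was at 34.1 FPKM or more in every input. Pmch, the precursor of MCH itself, was the most abundant of these peptide transcripts, at 46.8 to 485 FPKM, and Hcrt, the orexin precursor of neighbouring lateral hypothalamic neurons, ran from 1.56 to 60.1. All the pieces of tissue therefore held transcripts of the lateral hypothalamus beside those of the arcuate nucleus, in amounts that differed several-fold from mouse to mouse. Mchr1, the MCH receptor, was at 2.55 FPKM or less in every input and did not pass the filter on low values. The hM3Dq transgene is a modified human receptor and is not measured by mouse Chrm3, which was at 1.93, 1.37, 0.641 and 1.36 FPKM in hM3Dq mice 1, 3, 4 and 5 and at 0.226 to 5.33 (median 1.56) in controls, so no transcript here checks the genotype labels.

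No gene differed between the groups after adjustment. Of 13512 genes tested with limma on log2(FPKM + 1), 0 passed a Benjamini-Hochberg adjusted p of 0.05 (0%), and the smallest adjusted p was 0.921, for P4ha3. An unadjusted p under 0.05 was reached by 613 genes (4.54%), where a uniform distribution of p-values would put 675.6. Of these, 263 (1.95%) were higher and 350 (2.59%) lower in hM3Dq input, so 42.9% were higher. That split turned with the scaling, to 57.0% when libraries were rescaled to their nuclear protein-coding sum and to 66.7% when they were centred on their medians, and it was 54.5% without the filter on low values. Over all genes tested, 52.8% had a negative log2 fold change, or 43.0% when libraries were centred on their medians. The groups did not overlap in 75 genes (0.555%), of which 37 were higher (0.274%) and 38 lower (0.281%).

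The width of the intervals sets what could have been seen. The 95% interval of the log2 fold change reached a median of 0.653 to either side, or 1.57-fold. Folds in this paragraph are of FPKM + 1, the scale of the fit, and understate the change in FPKM of low genes. It was 0.807 for genes with a mean under 5 FPKM, 0.648 for genes at 5 to 20 FPKM and 0.424, or 1.34-fold, for genes at 20 FPKM or more. For 8657 genes (64.1%) the whole interval lay within a 2-fold change of FPKM + 1 in either direction. That share was 91.7% among the genes at 20 FPKM or more and 38.7% among those under 5, where it does not bound a 2-fold change of FPKM itself. These intervals are for 1 gene at a time, and a call after adjustment over 13512 genes needs a larger difference. P4ha3, at a mean of 10.5 FPKM, was 2.80-fold lower in hM3Dq input on the scale of FPKM + 1 and was not called. A missed threshold does not show that the groups were alike.

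**Figure D1:**
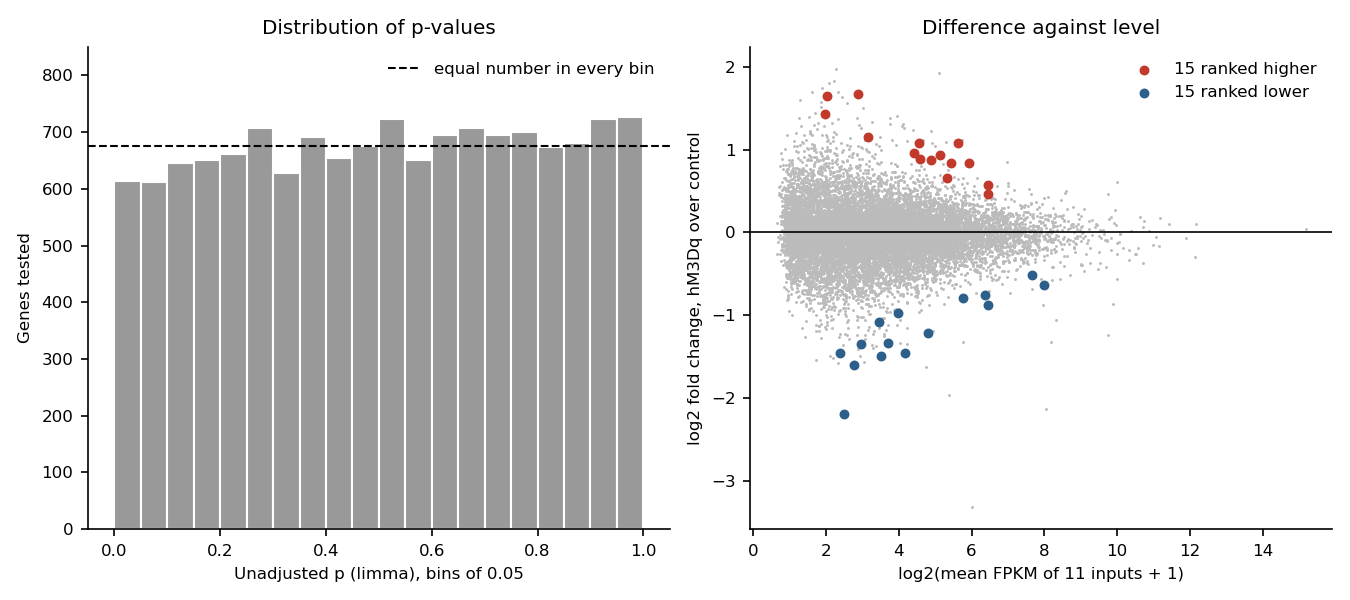
Left, the number of genes tested in each bin of unadjusted p (limma), with a dashed line at an equal number per bin; the lowest bin holds 613 genes against 675.6 for an even spread. Right, the log2 fold change of hM3Dq over control input against the level, log2(mean FPKM + 1) over 11 inputs, each grey point a gene, with the 15 genes ranked higher (red) and the 15 ranked lower (blue) marked; fold changes narrow as the level increases.

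The genes with the smallest unadjusted p in each direction are given as values, because none passed the test. They were required to have a mean of at least 5 FPKM in the higher group and a symbol that is not provisional. The 15 ranked lower in hM3Dq input had log2 fold changes from -2.19 to -0.51 and adjusted p from 0.921 to 0.968. The groups did not overlap in 7 of them, which is how they came to be ranked and is no further support.

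P4ha3, a subunit of the enzyme that hydroxylates prolines of collagen (build GRCm38, chromosome 7, 100285520 to 100319699, plus strand), was at 7.44, 2.40, 2.79 and 5.90 FPKM in hM3Dq mice 1, 3, 4 and 5, and at 11.5 to 16.7 (median 13.0) in the 7 controls. All 4 hM3Dq values lay below every control value, and the log2 fold change was -1.49 (95% interval -2.07 to -0.90). Mgp, matrix Gla protein, an inhibitor of calcification (chromosome 6, 136872435 to 136875823, minus strand), was at 0.161, 0.914, 0.642 and 0.0899 FPKM in hM3Dq mice, and at 0.0985 in control mouse 3 but up to 14.5 (median 7.31) among controls. The groups overlapped through control mouse 3 alone, and the log2 fold change was -2.19 (interval -3.34 to -1.04, limma adjusted p = 0.968). When that mouse was left out it became -2.61, with an adjusted p of 0.0194. All 4 hM3Dq values lay under 1 FPKM, so Mgp passed the filter on low values through controls alone. The mouse left out there is the 1 control that lay with the hM3Dq mice, so that p is no further support. Bgn, the matrix proteoglycan biglycan, was at 0.897, 2.23, 1.12 and 0.917 FPKM against 2.21 to 11.8 (median 5.75), with a log2 fold change of -1.46. Sparc, a secreted collagen-binding glycoprotein that astrocytes and vessels make, was at 217, 227, 169 and 142 FPKM against 225 to 363 (median 289). Its groups touched at a single mouse, and its log2 fold change was -0.63. Tmed3, a cargo receptor between endoplasmic reticulum and Golgi, was at 4.97, 5.27, 6.67 and 4.61 FPKM against 7.61 to 23.8 (median 15.2), without overlap, with a log2 fold change of -1.33. Scg5, the chaperone of prohormone convertase 2 in neuroendocrine granules, was at 39.0, 41.6, 31.0 and 30.0 FPKM against 41.1 to 91.5 (median 55.7), with a log2 fold change of -0.79.

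The other genes ranked lower are of mixed function. Fam19a1, a secreted brain peptide, had a log2 fold change of -1.08, Adi1, of methionine salvage, -0.76, and Aftph, of clathrin-coated vesicle traffic, -0.87, each without overlap between the groups. Ifi27, an interferon-induced gene, was at 10.2, 4.49, 4.40 and 9.99 FPKM against 13.1 to 46.0 (median 19.7), also without overlap (log2 fold change -1.46). Ccdc153, a gene of multiciliated ependymal cells, was at 1.13, 3.12, 3.78 and 3.45 FPKM against 3.92 to 13.9 (median 9.28), again without overlap (log2 fold change -1.35). Banf1, which bridges DNA and the nuclear envelope, Timm17b, of mitochondrial protein import, and Plekhb1, a membrane protein with a pleckstrin homology domain, had log2 fold changes of -1.22, -0.98 and -0.51, with overlapping groups. Of the 15, 6 overlap another annotated gene, and counting by strand is not given in the sources used here, so reads of the partner cannot be set apart.

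The 15 genes ranked higher in hM3Dq input had log2 fold changes from 0.46 to 1.67 and an adjusted p of 0.968 each. The groups did not overlap in 7 of them, and 10 overlap another annotated gene. Dnajc21, a J-domain protein of ribosome maturation (chromosome 15, 10446756 to 10470516, minus strand), was at 42.4, 31.6, 24.6 and 31.8 FPKM in hM3Dq mice 1, 3, 4 and 5 and at 13.5 to 21.2 (median 17.7) in controls, without overlap. Its log2 fold change was 0.89 (interval 0.47 to 1.31). H3f3a, which encodes the replication-independent histone H3.3 (chromosome 1, 180800832 to 180813943, minus strand), was at 62.1, 51.1, 49.9 and 70.7 FPKM against 23.4 to 45.6 (median 32.6), with a log2 fold change of 0.83 (interval 0.44 to 1.23). It lies across from annotated antisense transcripts, whose reads may be counted with it. Dnaja2, a cochaperone of Hsp70, was at 121, 113, 88.1 and 98.2 FPKM against 64.1 to 81.6 (median 76.5), without overlap, with a smaller log2 fold change of 0.46. Ccar1, a transcriptional coactivator, was at 55.9, 46.3, 50.1 and 50.5 FPKM against 22.8 to 45.8 (median 28.4), with a log2 fold change of 0.65.

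Zic1, a zinc finger factor of dorsal and septal forebrain neurons (chromosome 9, 91358058 to 91365810, minus strand), was at 29.2, 31.8, 25.8 and 47.6 FPKM against 9.79 to 29.9 (median 14.4), with overlapping groups and a log2 fold change of 1.09 (interval 0.48 to 1.69). Chd5, a neuronal chromatin remodeller, had a log2 fold change of 1.09, Irf2, an interferon regulatory factor, 0.88, Luc7l3, a splicing factor, 0.84, and Dcaf6, a substrate adaptor of a ubiquitin ligase, 0.94, all with overlap. Sept7, a septin of the cytoskeleton, had 0.58 and Akr1e1, an aldo-keto reductase, 0.97, also with overlap. Low genes gave the largest fold changes of this direction. Lsm10, of the U7 snRNP that matures histone transcripts, was at 13.3, 3.65, 26.2 and 6.63 FPKM against 0.170 to 5.45 (log2 fold change 1.67), and Ccdc34 was at 15.3, 8.38, 12.7 and 13.8 FPKM against 2.71 to 7.85 (log2 fold change 1.15). Ttc7, a scaffold of the lipid kinase complex at the plasma membrane, and Rrp9, of the U3 snoRNP, were each listed at 0 in 1 control input and reached 3.71 and 2.86 FPKM at most in the others, against 3.99 and 3.65 FPKM or more in every hM3Dq input.

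**Figure D2:**
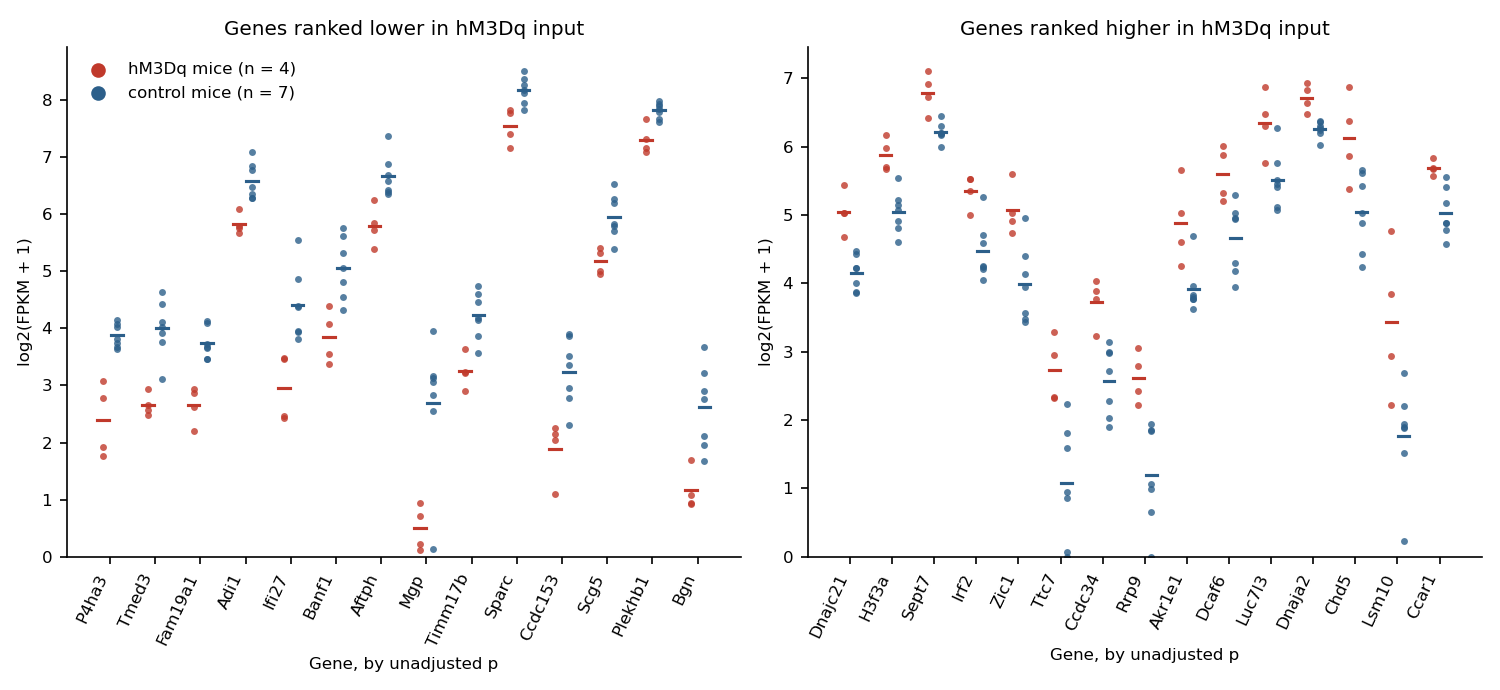
Levels as log2(FPKM + 1) in every input for the genes ranked lower (left) and higher (right) by unadjusted p that the text names, with hM3Dq mice in red (n = 4), control mice in blue (n = 7) and a bar at each group's mean. The groups do not overlap in 7 genes on each side, and the single low control point of Mgp is control mouse 3.

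The same genes were set beside the IP libraries of the same mice. In IP, 1 of 13531 genes was called (0.00739%), Gm25492, which is not among the genes ranked in input and is named only because the count is 1. None of the 30 ranked genes passed the adjusted threshold in IP (smallest adjusted p 0.810), nor in the test of the difference between IP and input per mouse (smallest adjusted p 0.999). The values ran side by side for Zic1, with a log2 fold change of 1.14 in IP against 1.09 in input, for Plekhb1, with -0.58 against -0.51, and for Mgp, with -1.69 against -2.19. Others had an IP value near 0 or of the opposite sign: Irf2 had -0.21 in IP, Rrp9 -0.20 and Lsm10 -0.66, against positive values in input. Both libraries of a mouse come from 1 piece of tissue, so they are not independent samples of the genotype.

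Among the peptide genes of the lateral hypothalamus, lower medians in hM3Dq mice went with a wide spread. Pmch was at 304, 46.8, 241 and 105 FPKM in hM3Dq mice 1, 3, 4 and 5 and at 113 to 485 (median 271) in controls. The highest hM3Dq values lay inside the control range, and the log2 fold change was -0.88 (interval -1.90 to 0.15, adjusted p = 1.00). Hcrt was at 18.4, 1.56, 42.3 and 17.8 FPKM against 15.4 to 60.1 (median 38.2), with a log2 fold change of -1.19, and hM3Dq mouse 3 was the lowest of the 11 in both. Cartpt, the CART precursor, which MCH and POMC neurons share, was at 29.9, 5.44, 18.3 and 11.7 FPKM against 16.5 to 42.0 (median 27.4), with a log2 fold change of -0.85 (interval -1.60 to -0.10, unadjusted p = 0.0293). Without hM3Dq mouse 3 the log2 fold changes were -0.36 for Pmch, -0.37 for Hcrt and -0.45 for Cartpt. Parpbp, a repair gene on the strand opposite Pmch, was at 0.693, 0.307, 7.09 and 1.03 FPKM against 0.0773 to 1.11, and reads of the overlapping pair cannot be told apart. Of the 9 tested genes of the lateral hypothalamic list, 0 were called, 1 had an unadjusted p under 0.05 (lower) and the median log2 fold change was -0.18, against -0.02 over all genes tested.

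Genes of AgRP and POMC neurons showed no called difference. Npy, the orexigenic peptide co-released by AgRP neurons, was at 76.2, 20.3, 22.1 and 5.53 FPKM in hM3Dq mice and at 14.4 to 144 (median 63.0) in controls. Mouse 1 lay above the control median and the other 3 hM3Dq mice below at least 6 of the 7 controls, with a log2 fold change of -1.32 (interval -2.55 to -0.08, unadjusted p = 0.0379, adjusted p = 1.00), or -0.73 without hM3Dq mouse 5. Agrp, made by the same neurons, was at 34.7, 5.76, 24.2 and 13.5 FPKM against 5.88 to 53.6 (median 16.3), with a log2 fold change of -0.03 (interval -1.14 to 1.08) that took the other sign under 10 alternatives, among them all 3 other scalings. Of 9 AgRP neuron genes tested, 8 had a negative log2 fold change, against 52.8% of all genes, with a median of -0.09, and Calcr and Acvr1c were at -0.21 and -0.18. That count of 8 fell to 7 after quantile normalization and to 6 after rescaling to the nuclear protein-coding sum. When libraries were centred on their medians it was 5, against 43.0% of all genes, with a median of -0.02. Pomc was at 13.0, 12.6, 8.64 and 4.06 FPKM against 4.34 to 44.8 (median 10.9), where control mouse 6 alone was above 20, with a log2 fold change of -0.43 (interval -1.40 to 0.55). All 9 POMC neuron genes tested had a negative log2 fold change (median -0.43, between -0.36 and -0.43 in 4 scalings), or 8 of them when libraries were centred on their medians, against 52.8% and 43.0% of all genes. Cartpt alone had an unadjusted p under 0.05, as 2.59% of all genes did in that direction. Tbx3, a factor that keeps the identity of arcuate peptide neurons, had -0.85 (-0.43 without hM3Dq mouse 5) and Prdm12, a regulator of Pomc, -0.59.

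Genes of the other arcuate neurons were mixed in sign, and none was called. Th, the rate-limiting enzyme of dopamine synthesis, was at 23.5, 12.5, 34.4 and 23.0 FPKM against 18.6 to 53.4 (median 27.0), with a log2 fold change of -0.44 (interval -1.07 to 0.19). Of 11 dopamine neuron genes, Gch1, which makes the cofactor of Th, was at 3.05, 1.46, 1.39 and 0.656 FPKM against 2.49 to 6.92 (log2 fold change -1.06, unadjusted p = 0.00469), whereas the transcription factor Onecut3 was at 4.03, 2.00, 5.23 and 2.36 FPKM against 0.0399 to 2.73 (log2 fold change 1.21, unadjusted p = 0.00964), and Nr4a2, a factor of dopamine neurons, had -0.81. Ghrh, growth hormone-releasing hormone, was at 3.12, 7.94, 4.30 and 3.88 FPKM against 0.981 to 35.8 (median 10.8), with a log2 fold change of -0.91 (interval -2.26 to 0.45). Sst was at 206, 45.1, 78.0 and 45.0 FPKM against 34.1 to 125 (median 89.5), with a log2 fold change of -0.13. Among 12 genes of this peptide group, Crabp1, a retinoic acid binding protein of arcuate neurons, had -1.62 (-0.79 without hM3Dq mouse 5) and Trh, thyrotropin-releasing hormone, 0.38. The 7 genes tested of kisspeptin and neurokinin B neurons had a median of -0.07. Tac2, the neurokinin B precursor, had -0.64 (-0.30 without hM3Dq mouse 3), the prolactin receptor Prlr -0.37 and the oestrogen receptor Esr1 0.44.

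**Figure D3:**
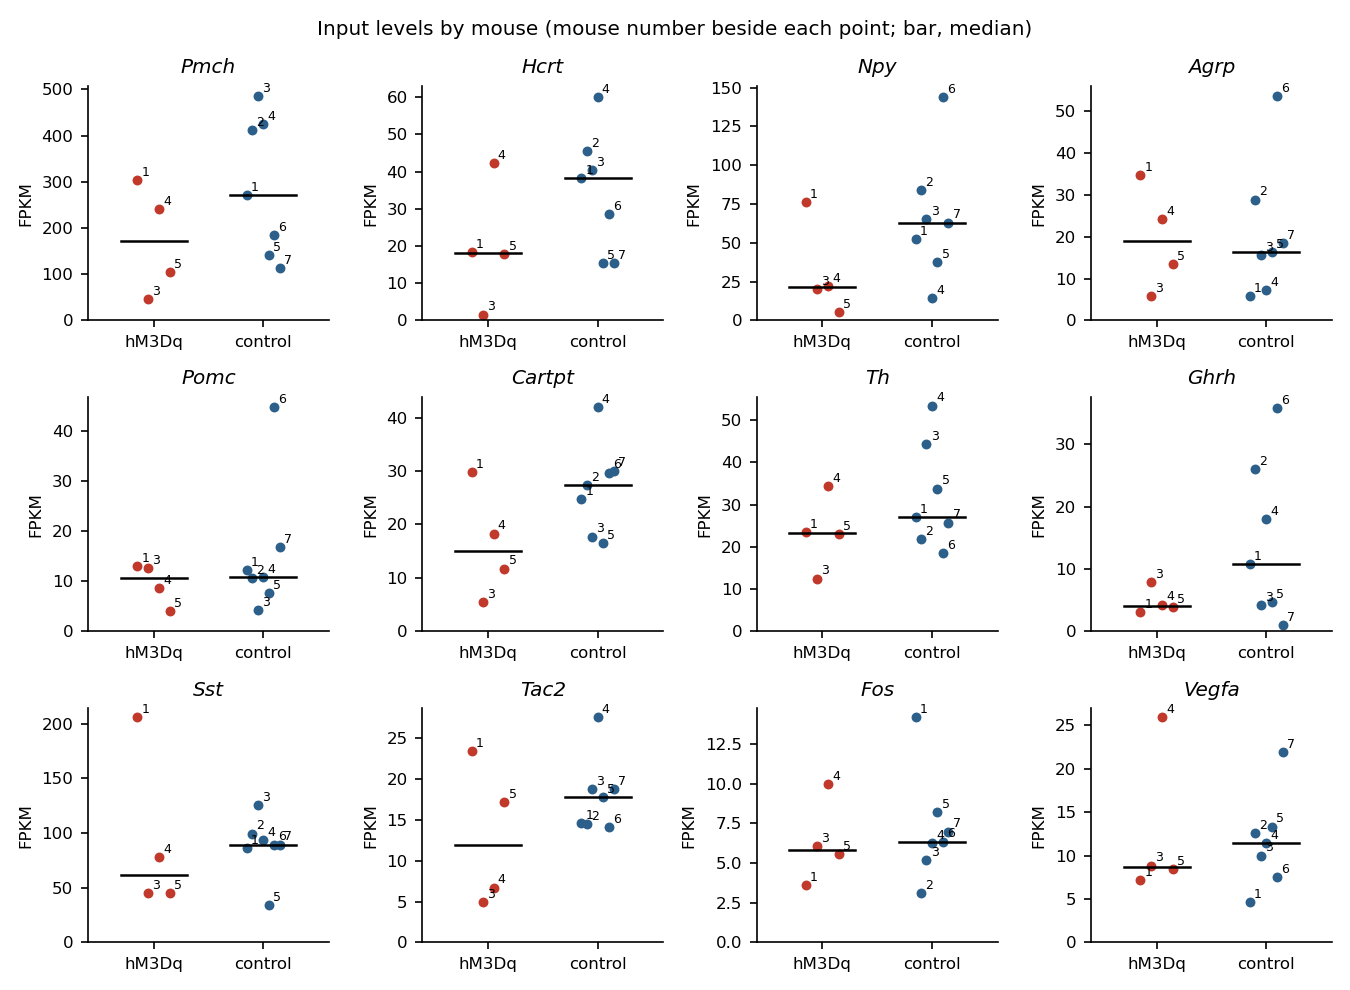
FPKM of 12 genes in each input, hM3Dq mice in red and control mice in blue, the mouse number beside each point and a bar at the median of each group; each panel has its own scale from 0. The groups overlap in every panel, hM3Dq mouse 3 is lowest of all for Pmch, Hcrt, Agrp, Cartpt and Th, and control mouse 6 is highest for Npy, Agrp, Pomc and Ghrh.

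Regions around the arcuate nucleus and neuronal genes at large were also measured. Ventromedial hypothalamic genes (9 tested, 7 negative, 0 with an unadjusted p under 0.05) had a median of -0.20, with Slc17a6, the vesicular glutamate transporter of hypothalamic neurons, at -0.41, Rreb1 at -0.76 and the peptide PACAP gene Adcyap1 at -0.61. Among 16 genes of other neighbouring regions (median 0.12), Hdc, which makes histamine in the tuberomammillary nucleus, was at 5.37, 2.91, 10.2 and 1.14 FPKM against 5.49 to 15.5 (median 10.7), and Foxb1, a factor of the mammillary body, was at 0.350, 0.597, 0.740 and 0.491 FPKM against 0.304 to 6.78 (median 3.40). Their log2 fold changes were -1.23 and -1.20. Pan-neuronal genes (19 tested) had a median of 0.05. Nefm, a neurofilament subunit, was at 39.3, 76.4, 35.9 and 44.6 FPKM against 24.3 to 46.6. Its log2 fold change was 0.64 (limma unadjusted p = 0.0119), or 0.41 without hM3Dq mouse 3. Syn1, a synaptic vesicle protein, had 0.21 and Syt1, the calcium sensor of release, 0.28. Gad2, of GABA synthesis, had 0.28. Transmitter genes as a list (5 tested) had a median of -0.03, whose sign changed with the scaling.

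No astrocyte or tanycyte gene was called, and most of their log2 fold changes were negative. Of 14 astrocyte genes, 13 had a negative log2 fold change (median -0.30, between -0.23 and -0.30 in 4 scalings) and 3 an unadjusted p under 0.05, where 52.8% and 2.59% of all genes did. These were Gja1, a gap junction protein, at 17.5, 26.3, 10.9 and 10.5 FPKM against 16.7 to 31.1 (median 26.7), Slc1a2, the main glutamate transporter, and Aqp4, the water channel of astrocyte endfeet. Slc1a2 was at 55.3, 127, 55.3 and 59.6 FPKM against 80.2 to 132 (median 94.6), and Aqp4 was at 5.23, 13.5, 4.67 and 5.35 FPKM against 8.40 to 16.6 (median 10.1). In both, 3 hM3Dq mice lay below every control and mouse 3 lay among the controls; the log2 fold changes were -0.63 for Gja1, -0.49 for Slc1a2 and -0.64 for Aqp4. Of 13 tanycyte genes, 12 were negative (median -0.42), or 11 when centred on the medians, against 52.8% and 43.0% of all genes, and Tgfb2, a growth factor, had -0.81 (unadjusted p = 0.0328), the receptor-like Gpr50 -0.80 and the thyroid hormone binding protein Crym -0.77. Summed tanycyte marker levels ran from 56.4 to 91.0 FPKM in hM3Dq mice and from 75.0 to 116 in controls, so the groups overlapped.

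Of 10 ependymal genes tested (median -0.12), 6 were negative, against 52.8% of all genes, and 4 were positive, up to 0.33. The lowest were Ccdc153 and Hdc, at -1.35 and -1.23, and Hdc is also the histamine gene given above. Dynlrb2 of cilia had -0.67, with an interval from -2.25 to 0.91, or -0.14 without hM3Dq mouse 5. Oligodendrocyte genes (14 tested) had a median of -0.04 whose sign changed with the scaling. Of the 14, 8 were negative, against 52.8% of all genes, and 6 were positive, up to 0.55. Mal had -0.47 and Cldn11 -0.50 (-0.32 without hM3Dq mouse 1), both genes of myelin. Oligodendrocyte precursor genes (11 tested, median 0.08) had Pdgfra at -0.55, Vcan at -0.59 and C1ql1 at 0.55. Microglial genes (12 tested, median -0.26) had the complement gene C1qb at -0.54 and Csf1r, the receptor microglia need to survive, at 0.59.

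The list with the lowest median was that of leptomeningeal fibroblasts, the cells of the membranes on the brain surface. Of 13 listed genes 9 were tested, and Lum, Col1a1, Col1a2 and Col3a1 were not. All 9 tested members were negative, as were 52.8% of all genes, with a median log2 fold change of -1.33 (between -1.24 and -1.33 in 4 scalings) against -0.02 over all genes. None was called, and 5 had an unadjusted p under 0.05, where 2.59% of all genes did in that direction. Igf2, a growth factor of the meninges, was at 4.51, 12.1, 6.30 and 12.2 FPKM in hM3Dq mice and at 6.09 to 131 (median 40.1) in controls. Ptgds, prostaglandin D synthase, was at 84.2, 170, 72.3 and 124 FPKM against 80.6 to 1028 (median 184), and Dcn, the proteoglycan decorin, was at 1.07, 1.18, 0.110 and 0.534 FPKM against 0.658 to 11.9 (median 4.10). Their log2 fold changes were -1.96, -1.33 and -1.49, and the groups overlapped in each. Summed over the list, hM3Dq mice lay at 120, 243, 112 and 174 FPKM, control mice 1, 4 and 5 at 916, 768 and 1225, and control mice 2, 3, 6 and 7 at 305, 127, 244 and 172, inside or near the hM3Dq range. Ptgds alone made up most of the sum in every input. In control mice 1, 4 and 5 it was at 629, 549 and 1028 FPKM, and Igf2 was at 131, 110 and 96.4. Dcn was at 7.09, 5.32 and 11.9 FPKM in them and at 1.66, 4.10, 0.658 and 2.29 in control mice 2, 3, 6 and 7. Bgn and Mgp divided the controls less clearly. Bgn was at 5.75, 11.8 and 8.27 FPKM against 6.50, 2.21, 2.87 and 3.35, and Mgp at 7.31, 14.5 and 7.95 against 6.10, 0.0985, 4.86 and 7.72. Whether more surface membrane came with the tissue of control mice 1, 4 and 5 was not tested.

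**Figure D4:**
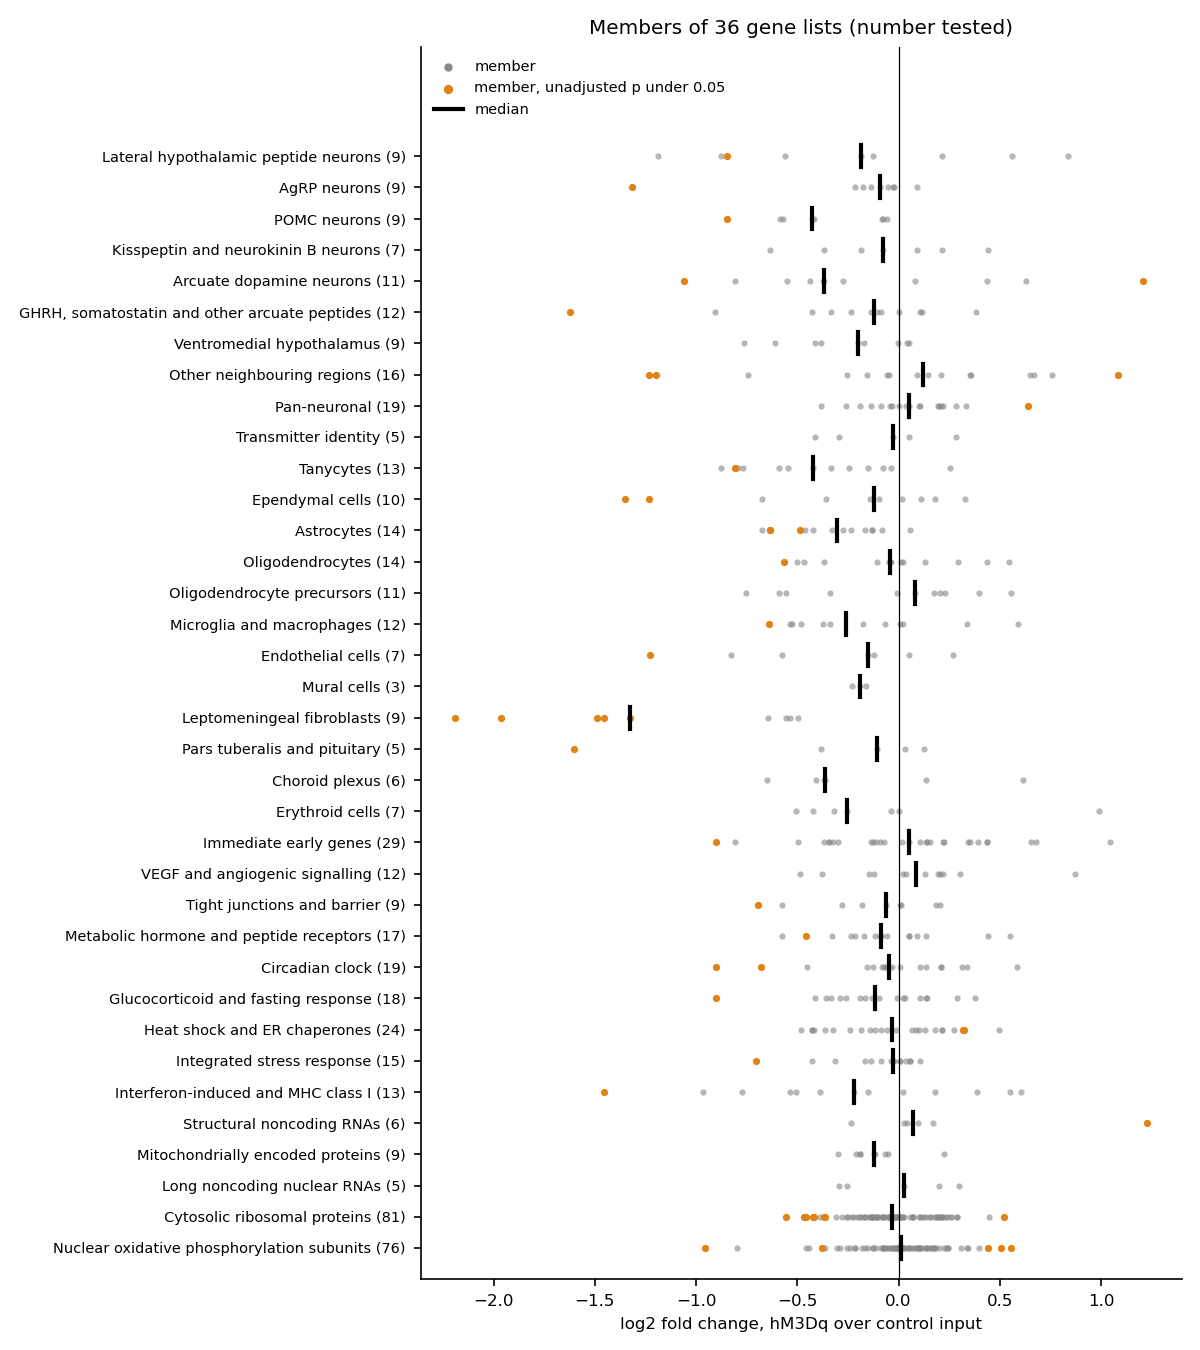
Log2 fold change of hM3Dq over control input for each tested member (points) of 36 gene lists, the number tested in brackets, with a bar at each list's median and members with an unadjusted p under 0.05 in orange; no member passed the adjusted threshold. Most medians lie near 0, and that of leptomeningeal fibroblasts lies at -1.33.

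Vascular and blood genes were low and variable. Endothelial genes (7 of 17 listed passed the filter, median -0.15) had Ly6c1 listed at 0 in hM3Dq mouse 4 and at 1.46, 4.07 and 1.73 FPKM in mice 1, 3 and 5 against 1.64 to 11.5, with Itm2a at -0.83 and Mfsd2a, the lipid transporter of the barrier, at -0.57. Plvap, the diaphragm protein of the fenestrated vessels of the median eminence, was at 2.46, 0.913, 1.02 and 1.03 FPKM against 0.145 to 2.49 (median 1.79), a log2 fold change of -0.12. Mural genes (3 tested, median -0.19) were Rgs5, Vtn and Myl9, at -0.23, -0.19 and -0.16. Vegfa, the angiogenic factor that tanycytes and other cells release, was at 7.21, 8.85, 25.9 and 8.47 FPKM against 4.66 to 21.9 (median 11.4). Its log2 fold change was 0.04 (interval -0.77 to 0.84), and only hM3Dq mouse 4 exceeded the controls. The 12 genes tested of VEGF and angiogenic signalling had a median of 0.08, with its coreceptor Nrp2 at 0.30 and the related ligand Vegfb at -0.38. The other coreceptor, Nrp1, was at 17.3, 1.81, 3.42 and 2.11 FPKM against 1.24 to 3.08, and its log2 fold change of 0.87 was 0.26 without hM3Dq mouse 1. Among 9 tight junction and barrier genes (median -0.06), Jam2, a junctional adhesion protein, had -0.69 (unadjusted p = 0.0243) and Cldn12 -0.28. Erythroid genes (7 tested, median -0.26) had Alas2, of haem synthesis, at 0.99 (0.43 without hM3Dq mouse 3), Bpgm at -0.26 and the globin Hbb-bs at -0.50. Alas2 was listed at 0 in 3 inputs and at 1.97e-22 FPKM in hM3Dq mouse 1. Pars tuberalis and pituitary genes (5 tested) had a median of -0.11, with Chga, a granule protein, at -0.38 and Eya3 at 0.12. Choroid plexus genes (6 tested, median -0.36) had Enpp2 at -0.65, Kl, which encodes klotho, at -0.36 and Clic6 at 0.61.

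Activity-regulated genes, which respond within the hour to neuronal firing, were measured in 29 members. Fos was at 3.62, 6.05, 9.95 and 5.53 FPKM in hM3Dq mice and at 3.12 to 14.2 (median 6.35) in controls, and the groups covered the same range. Its log2 fold change was -0.14 (interval -0.86 to 0.59), and it took the other sign under 5 alternatives. Fosb was at 1.33, 0.765, 2.50 and 1.82 FPKM against 0.743 to 2.60 (median 1.28), with 0.11 (interval -0.53 to 0.75). The list had 16 positive and 13 negative values and a median of 0.05, with Gadd45b at 1.05 (0.55 without hM3Dq mouse 4). The 1 member with an unadjusted p under 0.05 was Per1, a clock gene that activity also induces, at 3.98, 6.64, 5.70 and 6.83 FPKM against 5.93 to 21.8 (median 10.1), a log2 fold change of -0.90. Dbp, a clock output gene, was at 11.3, 13.2, 15.2 and 18.2 FPKM against 13.1 to 34.0 (median 24.5), with -0.68 (unadjusted p = 0.0123), and Npas2 had 0.58. The 19 clock genes had a median of -0.05, whose sign changed with the scaling, and the time of day of each mouse's collection is not given in the labels.

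Lists of hormone, stress and interferon genes had medians from -0.22 to -0.03, against -0.02 over all genes tested. Receptors of metabolic hormones and peptides (17 tested, median -0.09) had Ntrk2, the BDNF receptor, at 67.0, 63.6, 45.4 and 38.6 FPKM against 62.4 to 87.8 (log2 fold change -0.46, unadjusted p = 0.0170) and the orexin receptor Hcrtr2 at -0.58. Glucocorticoid and fasting response genes (18 tested, median -0.11) had Klf9 at 0.38 and Sgk1 at -0.29. Heat shock and ER chaperones (24 tested, median -0.03, of changing sign) had the mitochondrial chaperone Hspd1 at 104, 71.1, 93.0 and 88.1 FPKM against 66.2 to 75.2 and Dnaja1, an Hsp70 cochaperone, at 216, 197, 189 and 257 FPKM against 140 to 194, each with a log2 fold change of 0.32, and Hspb8 at -0.43. Integrated stress response genes (15 tested, median -0.03, of changing sign) had the cystine transporter Slc7a11 at -0.71, Ppp1r15a at -0.31 and Psat1 at -0.09. Interferon-induced and MHC class I genes (13 tested, median -0.22) had Ifit2 at -0.77 and B2m at -0.39 beside Ifi27. The list was mixed in sign: 8 members were negative, against 52.8% of all genes, and 5 were positive, up to 0.60.

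None of the most abundant transcripts was called. Rn7sk, a small nuclear RNA that restrains transcription elongation, held 8.20 ± 0.349% (SD, n = 4) of summed FPKM in hM3Dq inputs and 8.14 ± 2.93% (SD, n = 7) in controls, where mice 5 and 6 had 12.6% and 11.8%. Snap25, a synaptic fusion protein, was at 4804 ± 802 FPKM (SD, n = 4) against 4458 ± 512 (SD, n = 7). Calm2, a calmodulin, and Vsnl1, a neuronal calcium sensor, had log2 fold changes of 0.18 and -0.16. Structural noncoding RNAs (6 tested, median 0.07) had Rn7s1, of the signal recognition particle, at 60.0, 21.5, 33.1 and 44.3 FPKM against 5.55 to 63.1 (log2 fold change 1.23, unadjusted p = 0.0341), Rmrp at -0.23 and the neuronal RNA Bc1 at 0.10. Mitochondrially encoded genes (9 tested, median -0.12) were led by mt-Co1, mt-Nd1 and mt-Cytb, at -0.30, -0.07 and -0.05. Their summed share was 3.15 ± 1.71% (SD, n = 4) against 3.14 ± 0.579% (SD, n = 7), with 5.56% in hM3Dq mouse 3 and 1.68% in mouse 5. Nuclear oxidative phosphorylation subunits (76 tested) had a median of 0.01, with Cox5b at 0.51, Atp5k at 0.44 and Atp5j at -0.38. Cytosolic ribosomal protein genes (81 tested) had a median of -0.03, of changing sign, with Rps3 at -0.56, Rps16 at -0.36 and Rps23 at 0.52. Of the 81, 7 were lower and 1 higher with an unadjusted p under 0.05 (limma), where 2.59% and 1.95% of all genes were. Long noncoding nuclear RNAs (5 tested, median 0.03, of changing sign) had Snhg11 at -0.29, Miat at 0.30 and Neat1 at -0.26.

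For some genes a single mouse stood far from the rest of its own group. Ttr, transthyretin, the chief product of the choroid plexus, was at 284 FPKM in control mouse 1, at 1.65 to 7.36 in hM3Dq mice and listed at 0 in 1 control. Summed choroid plexus markers were 382 FPKM in control mouse 1 and at most 39.1 in the other inputs. Ttr itself and Enpp2 (83.2 FPKM) made up most of that sum. In control mouse 1, Otx2 was the highest of all inputs at 7.44 FPKM, but Kl (2.69) and Clic6 (1.65) lay inside the range of the others. In hM3Dq mouse 3, Tcf7l2, a factor of thalamic and habenular neurons, was at 185 FPKM against 16.7, 17.6 and 73.1 in the other hM3Dq mice. Prkcd, a kinase abundant in the thalamus, was at 148 FPKM there against 2.09, 7.50 and 28.0, and Rora, a nuclear receptor also high in the thalamus, at 98.0 against 15.4, 23.2 and 38.1. That mouse also had the highest oligodendrocyte sum, 1897 FPKM, and the lowest Pmch, Hcrt and Cartpt. These 3 thalamic genes and Gphn were picked out after their values were seen. Among the 10 genes of widest spread within groups, Gm23134, a small RNA gene that overlaps Blcap and lies across from Nnat (chromosome 2, 157562361 to 157562447), was at 802 FPKM in hM3Dq mouse 1 and below 1 in the other 3, and at up to 926 FPKM among controls. What the tissue pieces contained beyond the arcuate nucleus and median eminence was not tested against the group values.

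**Figure D5:**
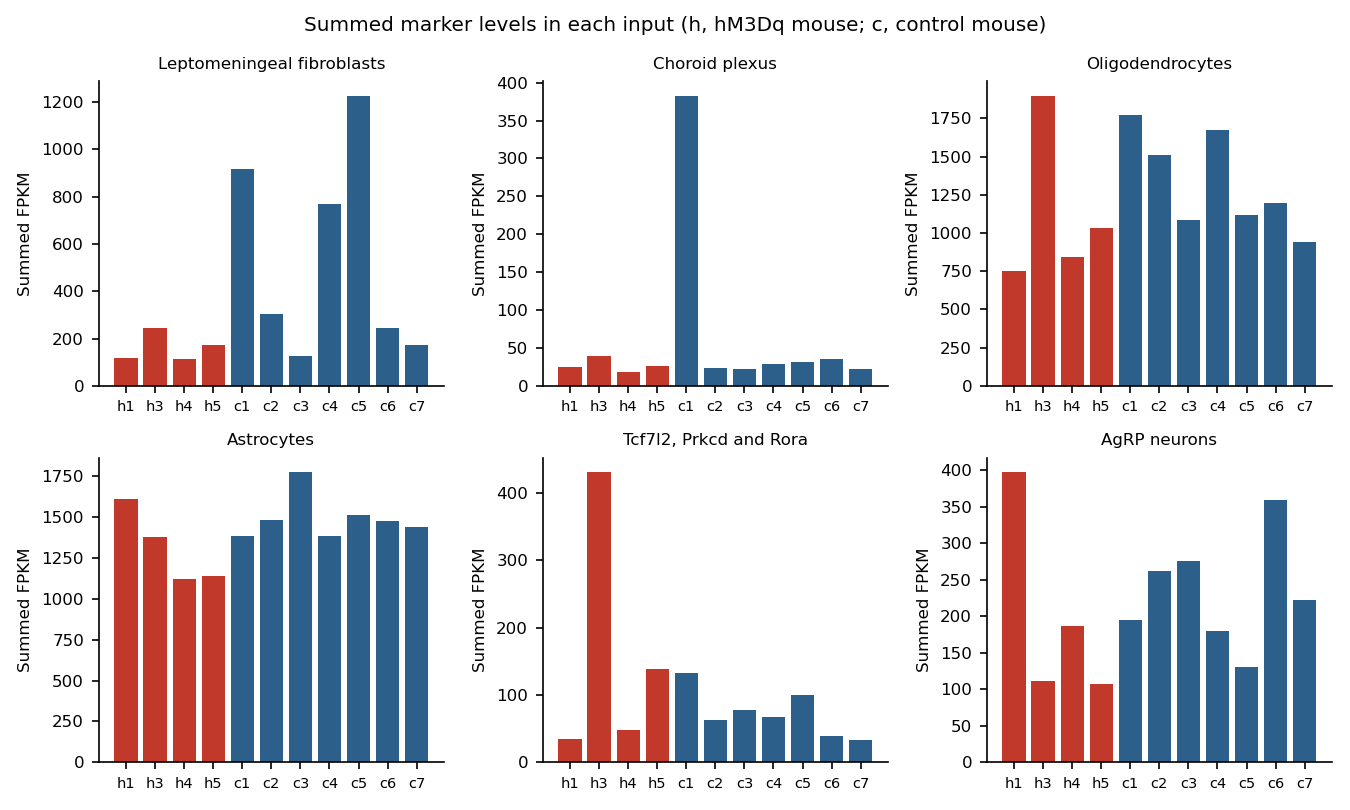
Summed FPKM of marker genes in each input, hM3Dq mice (h) in red and control mice (c) in blue, each panel with its own axis from 0. Control mice 1, 4 and 5 are high for leptomeningeal genes (768 to 1225), control mouse 1 for choroid plexus genes (382), and hM3Dq mouse 3 for the sum of Tcf7l2, Prkcd and Rora. For oligodendrocyte genes hM3Dq mouse 3 is highest (1897), with control mice 1 and 4 near it (1776 and 1675). Most of the leptomeningeal sum is Ptgds, and most of the choroid plexus sum in control mouse 1 is Ttr.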

How the data were processed

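RNA of 11 ARC/ME inputs was compared between 4 hM3Dq and 7 control mice. The authors deposited 1 table of normalized FPKM for 17440 genes, made with HISAT2 2.1.0 and StringTie 1.3.4d on GRCm38.p6, per the submitters' processing notes. The normalization method is not given in the sources used here. The table lists genes above 0 in IP and input of at least 2 mice of each genotype. Its 11 columns of IP over input ratios per mouse were not used. Of the IDs, 17435 matched GENCODE mouse release 21.

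Genes at 1 FPKM or more in at least 4 of 11 inputs were tested as log2(FPKM + 1) with limma 3.58.1 (lmFit, eBayes with trend) in R 4.3.3, two-sided and unpaired, and called at a Benjamini-Hochberg adjusted p of 0.05. A pseudocount understates changes of low genes. The fit was tested on simulated data. Relative depth came from the spacing of low FPKM values; the estimates differed by under 0.1 (log2) in 224 of 231 pairs. Whether same-numbered mice deviate together was checked: the correlations were -0.084, -0.081, 0.012 and 0.042, and the numbers name different animals, so no pairing was used. Python 3.11.15, pandas 2.3.3 and matplotlib 3.10.9 made tables and figures.

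The text names the 15 genes of smallest unadjusted p in each direction with a mean of at least 5 FPKM in the higher group and no provisional symbol, a fixed set of peptide, activity and vascular genes, up to 3 genes of smallest p from each of 36 lists, and some of the most abundant and most variable genes. The genes, lists and comparison were chosen with earlier results of these data known. Kiss1 was not analysed here, and some genes that the rule selects are not reported here. Alternatives were other pseudocounts, filters, scalings, variance models, a depth covariate, a replicate block and leaving out mice.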

Additional observations from a re-analysis of the deposited data

Results flagged for a closer look

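Single mice stood far from the others of their group in 21 of 308 groups of values examined, by the gap to the nearest mouse over the range of the group on the log2 scale. Chance flags about 1 in 20 groups. The groups examined were those of the genes named in the text and of the library measures. Some of these genes were chosen for a wide spread or after their values were seen, so the 21 flags cannot be weighed against that rate.

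High in hM3Dq mouse 1 were Plvap (2.46 FPKM) and Gm23134 (802 FPKM), and Cldn11 was low there (3.04 FPKM). High in hM3Dq mouse 3 were the astrocyte genes Slc1a2 (127 FPKM) and Aqp4 (13.5 FPKM), and high in hM3Dq mouse 4 were Vegfa (25.9 FPKM) and its coreceptor Nrp2 (13.4 FPKM).

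Control mouse 1 was high for Ttr (284 FPKM), Enpp2, an enzyme of the choroid plexus and of oligodendrocytes (83.2 FPKM), and the share of summed FPKM held by globins (0.0487%), and low for Gas5, a noncoding snoRNA host (1174 FPKM). Control mouse 2 was high for Tgfb2 (10.6 FPKM). Control mouse 3 was low for Mgp (0.0985 FPKM) and Atp5j (426 FPKM).

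Control mouse 4 was high for Akr1e1 (24.9 FPKM), Tac2 (27.5 FPKM) and Pdgfra (8.46 FPKM) and low for mt-Co1 (3452 FPKM). Control mouse 5 was low for Sst (34.1 FPKM) and C1qb (5.29 FPKM). Control mouse 6 had Gphn listed at 0, where the other control inputs held 19.9 to 52.8 FPKM.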

How the results depend on the processing

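The count of 0 called genes held in 26 of 27 alternatives. Leaving out each mouse in turn gave 0 to 1 called genes: without control mouse 3, Mgp alone was called, with a log2 fold change of -2.61 and an adjusted p of 0.0194, because that mouse had the single low control value of Mgp. Mgp passed the filter on low values through controls alone, so that call is no further support. Over those 11 settings, genes with an unadjusted p under 0.05 numbered 466 to 691, against 613 in the comparison as reported, and over all alternatives 454 to 1018, the highest count coming from weights per library. The share of them higher in hM3Dq was 42.9% as reported, 54.5% without the filter on low values, 57.0% after rescaling to the nuclear protein-coding sum and 66.7% after centring on the median. With the replicate block over mice 1, 3, 4 and 5, 0 genes were called and 646 had an unadjusted p under 0.05; the shared numbers name different animals, and 1 of the 4 correlated best with its own number. Of 143 genes named and tested, 26 changed sign under at least 1 alternative, none of them called. In 25 named genes with an absolute log2 fold change of 0.5 or more, leaving out 1 mouse lowered its size by over 1.5 times or turned its sign. The median of 8 of 36 lists changed sign with the scaling, each lying within 0.1 of 0. No library measure passed its adjusted threshold under any alternative. The reads behind each FPKM are unknown, so no counting error could be given, and the 11 mice and the wide intervals of genes under 5 FPKM limit what could be seen.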
